A study of Oryza sativa with 12 samples.

Results

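Of 1485 long non-coding RNA (lncRNA) transcripts measured in rice leaves, 828 were the sole listed transcript of their locus. Among these 828, 45 met limits that set them apart as listed in Dongnong422 and at or next to 0 in Kongyu131. They were chosen from the deposited expression values. Each is the sole listed transcript of its locus, averages at least 1 FPKM over the 6 Dongnong422 libraries, and stays under 0.1 FPKM in each of the 6 Kongyu131 libraries. FPKM is a fragment number relative to the length of the transcript and to the size of the library. Since those values made the choice, the gap between the cultivars is described here without a test. The choice averaged all 6 Dongnong422 libraries and did not compare cold with control, which is the comparison tested here. Still, 4 of the 45 reached the limit on level only through Dongnong422 control replicate 2. LNC_001216, LNC_000346 and LNC_000088 averaged under 1 FPKM in cold leaves and reached the limit only through the control libraries as a group. LNC_001225 averaged under 1 FPKM in control leaves and reached it only through the cold libraries. The direction of all of these is not independent of the choice. LNC_000604 also fell under the limit without control replicate 3, and LNC_001225 without cold replicate 1 or 2.

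LncRNAs are transcripts that are not translated into protein, and some act on the expression of other genes. Long intergenic non-coding RNAs (lincRNAs) lie between protein-coding genes, and antisense lncRNAs come from the strand opposite to another gene. Plant lncRNAs are often low in level and restricted to a tissue, a condition or a variety. At booting the rice panicle grows inside the sheath of the flag leaf, and cold at that stage is known for harming pollen development.

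The study crossed 2 rice (Oryza sativa) cultivars with 2 treatments, and each of the 4 groups held 3 libraries. The groups were Dongnong422 cold, Dongnong422 control, Kongyu131 cold and Kongyu131 control, all from leaves at the booting stage of plants grown outdoors. Cold meant 13 days at 17 °C in an incubator, lit for 16 h and dark for 8 h a day. The labels give this same protocol for the control libraries too and state no temperature of their own for them, so temperature and the incubator cannot be told apart. A leaf was taken per bucket, and nothing else says that replicates were separate plants, so p-values here speak of variation between libraries that may be technical.

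Each library listed between 1361 and 1414 of the 1485 transcripts above 0, with a median of 0.5 to 0.677 FPKM. The 828 loci with a single listed transcript, from which the 45 were drawn, leave out the 211 loci whose fragments had to be divided among several transcripts. Neither symbols nor positions accompany the identifiers, and 0 of the 45 transcript or locus identifiers matched the rice gene table used here. The lncRNAs are therefore named by identifier only, no role, sequence or neighbouring gene is given for any of them, and leaf markers could not be checked. The depth behind each value is unknown.

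The Kongyu131 values of these lncRNAs were nearly all exactly 0. Of the 45, 44 were listed at exactly 0 in all 6 Kongyu131 libraries. The remaining one was the antisense lncRNA LNC_001392 of locus XLOC_054162. It stood at 0.0128, 0.0132 and 0 FPKM in cold Kongyu131 leaves and at 0 in the 3 control ones, against 2.16 to 3.22 FPKM in Dongnong422 libraries. A listed 0 may stand for no fragments or for an estimate that failed. Some lncRNAs lay between the 45 and those clearly listed in both cultivars. Among the 404 other single-transcript lncRNAs with a Dongnong422 mean of at least 1 FPKM, 384 reached 1 FPKM in at least 1 Kongyu131 library and 20 had their highest Kongyu131 value between 0.1 and 1 FPKM. Of those 404, 32 were at 0 in at least 1 Kongyu131 library. The median of the 404 was 2.42 FPKM in Dongnong422 and 2.34 FPKM in Kongyu131.

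**Figure D1:**
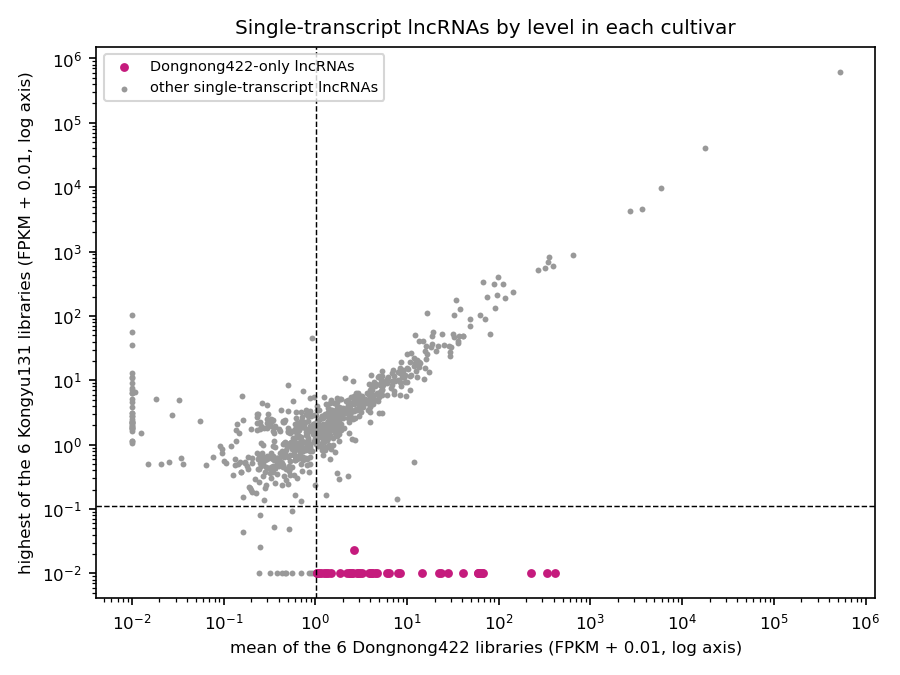
Mean FPKM over the 6 Dongnong422 libraries (x) against the highest FPKM among the 6 Kongyu131 libraries (y) for the 828 single-transcript lncRNAs, both with 0.01 added and on log axes; dashed lines mark 1 and 0.1 FPKM. The 45 Dongnong422-only lncRNAs lie along the bottom, 44 of them at 0 in Kongyu131, while most others follow the diagonal.

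Just inside the limits were LNC_001225 (XLOC_048421) and LNC_000263 (XLOC_012505), both lincRNAs, with Dongnong422 means of 1.03 and 1.04 FPKM. Just outside on level were the lincRNAs LNC_000532 (XLOC_020140) and LNC_001163 (XLOC_044635), with means of 0.979 and 0.947 FPKM and 0 in every Kongyu131 library. On the Kongyu131 side the nearest non-members were the lincRNA LNC_000135 (XLOC_006733) and the antisense lncRNA LNC_001198 (XLOC_046879). LNC_000135 averaged 7.75 FPKM in Dongnong422 and was above 0 in 1 Kongyu131 library, at 0.131 FPKM. LNC_001198 averaged 1.30 FPKM in Dongnong422 and was above 0 in 1 Kongyu131 library, at 0.153 FPKM. In all, 63 single-transcript lncRNAs stayed under 0.1 FPKM in every Kongyu131 library, of which 18 did not reach a mean of 1 FPKM in Dongnong422.

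By class the 45 were 34 lincRNAs (75.6%) and 11 antisense lncRNAs (24.4%). LincRNAs made up 68.8% of the 404 others at the same Dongnong422 level and 61.8% of all 828 single-transcript lncRNAs. The same rule with the cultivars exchanged gave 31 Kongyu131-only lncRNAs, 27 lincRNAs (87.1%) and 4 antisense lncRNAs. Of those 31, 26 were at 0 in all 6 Dongnong422 libraries. These shares are given as counts, and their differences were not tested.

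Levels spanned a wide range. The 45 means ran from 1.03 to 409 FPKM with a median of 4.04 FPKM, against a median of 2.42 FPKM for the 404 others and of 2.48 FPKM in Kongyu131 for the 31 Kongyu131-only lncRNAs. Means of 10 FPKM or more were reached by 13 of the 45 (28.9%), by 19.6% of the others and by 3 of the 31 (9.68%). The highest Kongyu131-only lncRNA, the lincRNA LNC_000414 (XLOC_016383), averaged 60.4 ± 26.1 FPKM in its cultivar (SD, n = 6), below the 6 highest of the 45. Of these 6, LNC_000555 and LNC_000304 lay above it only through Dongnong422 control replicate 2, averaging 33.1 and 15.6 FPKM without that library. The median lincRNA of the 45 averaged 3.56 FPKM and the median antisense lncRNA 4.19 FPKM. Among the 404 others these medians were 2.79 and 1.89 FPKM.

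A group of 3 lincRNAs stood above the rest, with 55.9% to 72.8% of the FPKM summed over the 45 in a Dongnong422 library. LNC_001480 (XLOC_058068) was at 417, 403 and 325 FPKM in cold Dongnong422 leaves and at 339, 603 and 368 FPKM in control ones. It was present at a high level in all 6 libraries, ranking between position 7 and 12 among the 1485 transcripts of each, and the treatments overlapped. LNC_000317 (XLOC_013809) was at 175, 266 and 384 FPKM in cold leaves and at 99.1, 620 and 476 FPKM in control leaves. The control libraries held both its lowest and its highest value. LNC_000721 (XLOC_027198) was at 143, 101 and 236 FPKM in cold leaves and at 157, 282 and 423 FPKM in control leaves, again with overlap. All 3 were listed at 0 in the 6 Kongyu131 libraries.

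Below them came the lincRNAs LNC_000555 (XLOC_021167) and LNC_001019 (XLOC_038210), which had similar means and unlike spreads. LNC_001019 was at 74.9, 64.5 and 72.6 FPKM in cold and at 47.8, 69.9 and 64.3 FPKM in control leaves, with a coefficient of variation of 14.8% over the 6 libraries. LNC_000555 was at 59.5, 26.3 and 43.3 FPKM in cold and at 10.3, 244 and 26.3 FPKM in control leaves, and control replicate 2 alone held 59.6% of the sum of the 6 values. Its coefficient of variation was 128%.

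**Figure D2:**
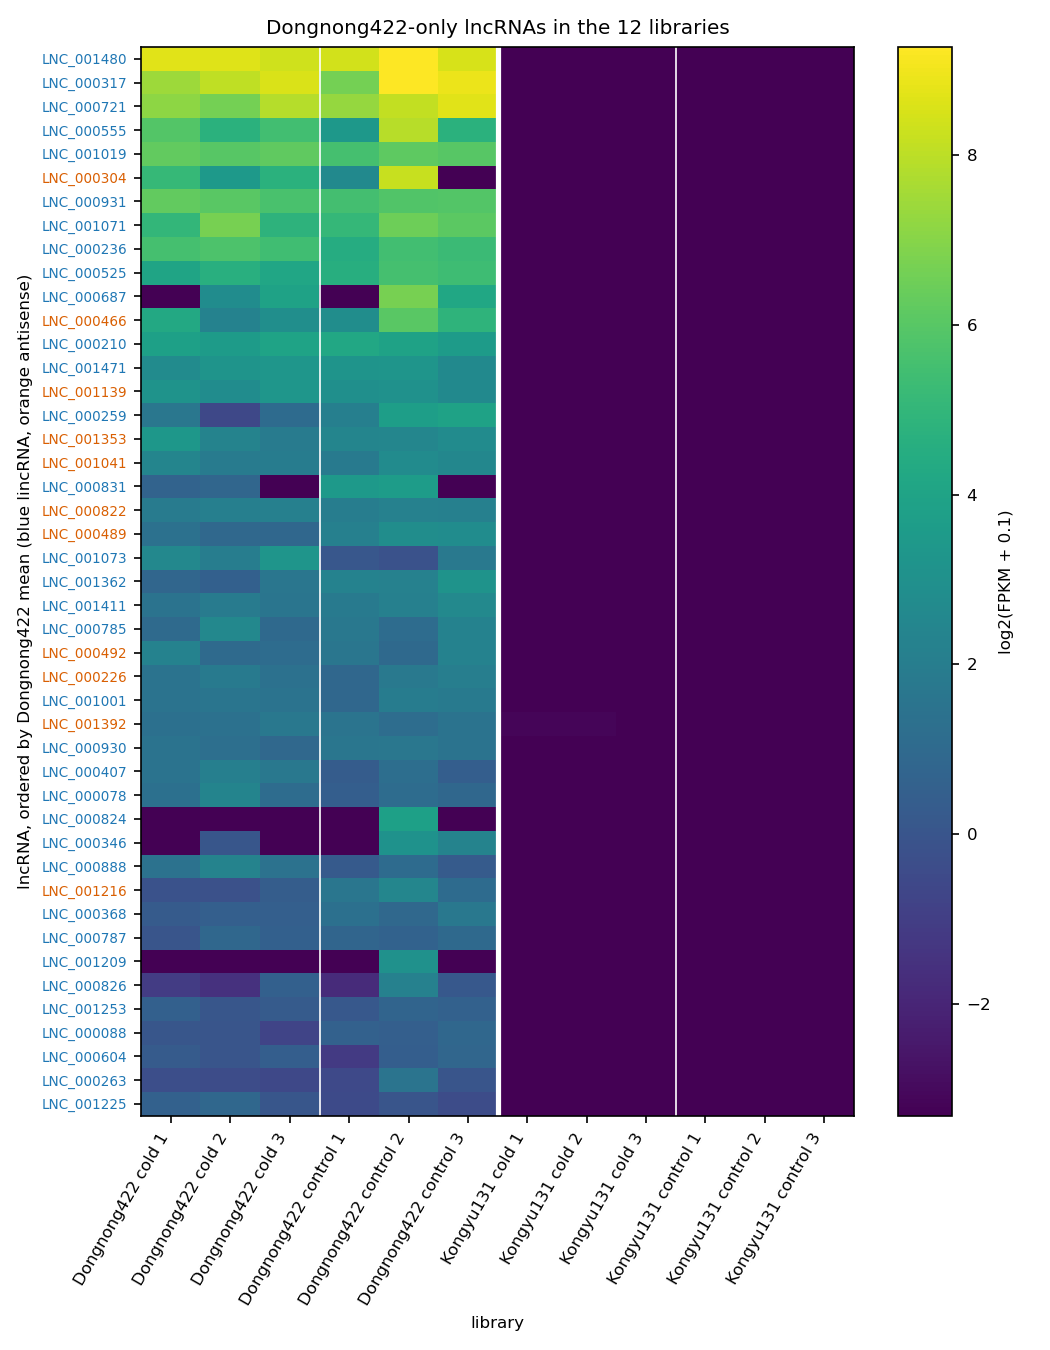
Level of each of the 45 lncRNAs (rows, highest Dongnong422 mean at the top; blue names lincRNAs, orange names antisense lncRNAs) in each of the 12 libraries (columns), as log2(FPKM + 0.1). Kongyu131 columns are at the floor throughout except for the faint values of LNC_001392, and Dongnong422 control replicate 2 holds bright cells for lncRNAs that are at or near 0 in other Dongnong422 libraries.

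A part of the 45 was steady across Dongnong422 leaves. A coefficient of variation under 20% was found for 8 of the 45 and for 40 of the 404 others. The steadiest was the antisense lncRNA LNC_000822 (XLOC_030733), at 3.64, 4.20 and 4.33 FPKM in cold and 4.01, 4.56 and 4.41 FPKM in control leaves, a coefficient of variation of 7.85%. Next was LNC_001392, at 2.42, 2.49 and 3.22 FPKM in cold and 2.77, 2.16 and 2.68 FPKM in control leaves (13.9%). In both the treatments overlapped. The median coefficient of variation was 44.5% over the 45 and 40.7% over the others, and within the 45 it was 49.6% for lincRNAs and 37.4% for antisense lncRNAs.

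Another part varied widely between Dongnong422 libraries, and 7 of the 45 had most of their summed FPKM in control replicate 2 alone. Of the 45, 9 (20%) had a coefficient of variation over 100%, against 5.20% of the 404 others and 1 of the 31 Kongyu131-only lncRNAs. LNC_000824 (XLOC_030883), a lincRNA, was at 14.5 FPKM in Dongnong422 control replicate 2 and at 0 in the other 5 Dongnong422 libraries, cold and control. LNC_001209 (XLOC_047216), also a lincRNA, was at 8.25 FPKM in that library and at 0 in the other 5. These are the 2 lncRNAs listed at 0 in all 3 libraries of a treatment. The choice of both as Dongnong422-only depends on that library. With it left out, the mean of 4 of the 45 was under 1 FPKM (LNC_000824, LNC_001209, LNC_000826 and LNC_000263), 41 were kept and 2 others entered.

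The antisense lncRNA LNC_000304 (XLOC_013394) was at 35.0, 10.97 and 26.0 FPKM in cold leaves and at 6.11, 298 and 0 FPKM in control leaves. Control libraries thus held both its highest value and its sole 0. LNC_000687 (XLOC_025610), a lincRNA, was at 0, 6.89 and 15.5 FPKM in cold and 0, 102 and 18.3 FPKM in control leaves. LNC_000466 (XLOC_017856), an antisense lncRNA, was at 19.6, 4.70 and 7.50 FPKM in cold and 7.02, 67.0 and 29.3 FPKM in control leaves. In each of the 3, control replicate 2 was again far above the other libraries. The last 2 were named after their values were seen.

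Over the whole set, Dongnong422 control replicate 2 held the highest value of 20 of the 45 (44.4%) and of 21.3% of the 404 others. It exceeded the highest of the other 5 libraries more than 2 times over for 8 of the 45 (17.8%), 6 of them lincRNAs, and for 2.23% of the others. A further 1 of the 45 stood out that way in another library, the lincRNA LNC_000078 (XLOC_004378) in cold replicate 2. The 45 summed to 1194, 1228 and 1348 FPKM in cold and to 899, 2692 and 1741 FPKM in control libraries. Control replicate 2 listed all 45 above 0, where each of the other 5 libraries listed 41 or 43. The same library also listed the most transcripts above 0 of all 12, 1414. Its part in these results beyond the values given without it was not tested.

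**Figure D3:**
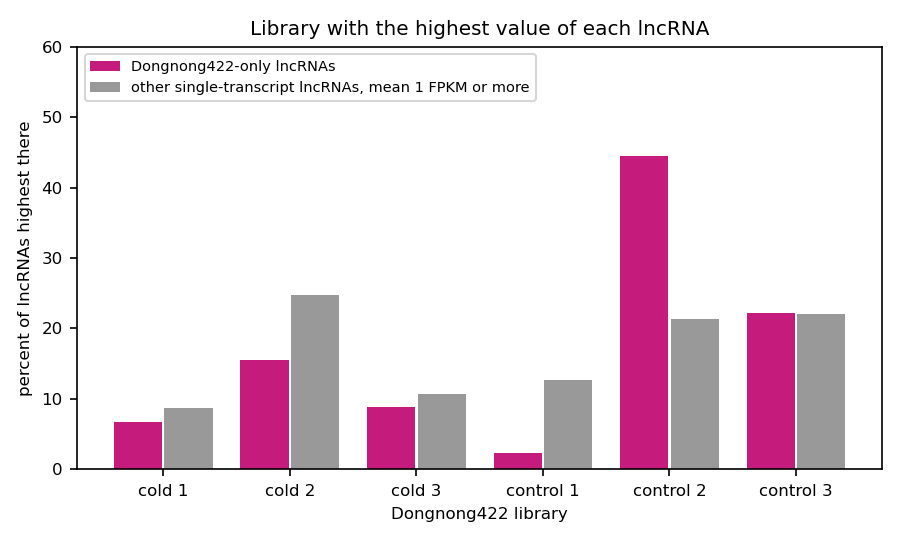
Percent of lncRNAs whose highest Dongnong422 value fell in each of the 6 Dongnong422 libraries, for the 45 Dongnong422-only lncRNAs (pink) and the 404 other single-transcript lncRNAs with a mean of at least 1 FPKM (grey). Control replicate 2 held 44.4% of the Dongnong422-only lncRNAs and 21.3% of the others.

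None of the 45 lncRNAs passed the test for a cold change in Dongnong422. The test was limma on log2(FPKM + 0.1) over the 3 cold and 3 control libraries, with Benjamini-Hochberg adjustment over the 1359 lncRNAs tested. Of these 1359, 7 were called at an adjusted p under 0.05 (0.515%), 2 higher (0.147%) and 5 lower (0.368%) in the cold. The lowest adjusted p among the 45 was 0.064. At an unadjusted limma p under 0.05 stood 11 of the 45 (24.4%), 4 higher and 7 lower in the cold. Of all tested, 23.5% did, 9.71% higher and 13.8% lower. Cold and control libraries did not overlap for 11 of the 45, 4 higher and 7 lower in the cold, against 30.9% of all tested, 12.8% higher and 18.1% lower. The first share is close to that over all lncRNAs and the second, 24.4%, lies below it. The split at an unadjusted limma p under 0.05 moved with single libraries, to 6 higher and 6 lower without control replicate 2, where 43 of the 45 were tested, and to 2 higher and 10 lower without control replicate 1.

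The 45 log2 changes, cold minus control, had a median of -0.21, and 31 of the 45 were below 0, where the median over all 1359 was -0.16 and 58.4% were below 0. With median-ratio scaling between libraries these medians were -0.04 and 0.005, and 23 of the 45 were below 0. Without control replicate 2 they were -0.06 and -0.13, and 24 of the 43 tested were below 0. The 4 lncRNAs that reached the limit on level only through that library all had changes below 0 in the main fit. So had LNC_001216, LNC_000346 and LNC_000088, which reached it only through the control libraries. LNC_001225, which reached it only through the cold libraries, had a change above 0. No direction is read from these medians and counts. Changes smaller than 1 on the log2 scale were found for 31 of the 45 (68.9%) and for 68.5% of all tested. The median change was -0.29 for the 34 lincRNAs and -0.09 for the 11 antisense lncRNAs.

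**Figure D4:**
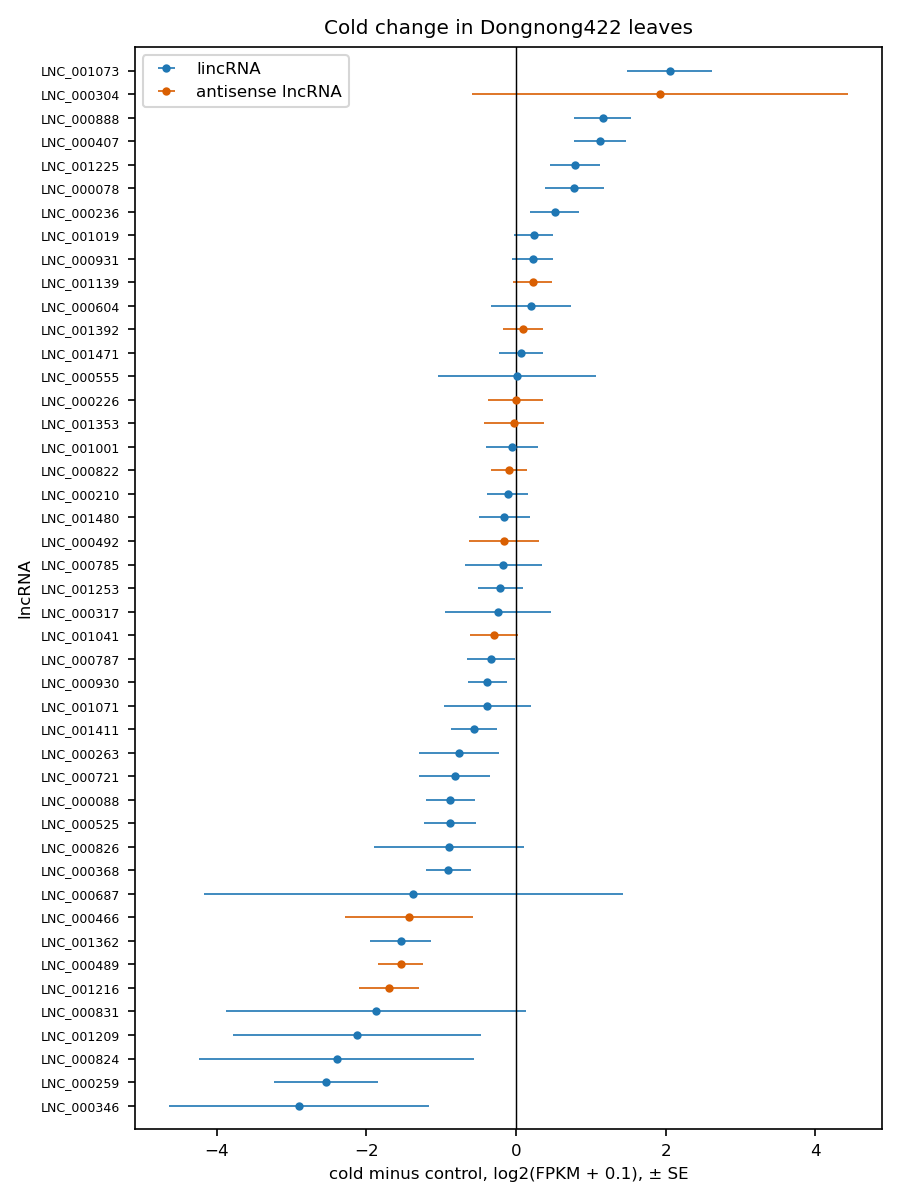
Log2 change, cold minus control, of each of the 45 lncRNAs in Dongnong422 leaves on the log2(FPKM + 0.1) scale, with its standard error (3 cold and 3 control libraries; blue lincRNAs, orange antisense lncRNAs). Changes run from -2.90 for LNC_000346 to 2.05 for LNC_001073, and the bars are widest for lncRNAs with libraries at 0.

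Of the values above 0, the furthest was that of the lincRNA LNC_001073 (XLOC_040688). It was at 5.80, 3.995 and 9.50 FPKM in cold leaves and at 0.956, 0.817 and 3.27 FPKM in control leaves, so each cold library lay above each control one. Its log2 change was 2.05 (SE 0.565, limma adjusted p = 0.108), and 1.70 to 2.64 when single libraries were left out. Second was LNC_000304, whose log2 change of 1.92 (SE 2.51, adjusted p = 0.687) has the opposite sign to the difference of its means. Without control replicate 3, the library at 0, its change was -0.99.

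Of the values below 0, the furthest was that of the lincRNA LNC_000346 (XLOC_014702), at 0, 0.928 and 0 FPKM in cold and 0, 8.52 and 4.86 FPKM in control leaves. Its log2 change of -2.90 had an SE of 1.74 (adjusted p = 0.358), and the treatments shared the value 0. The change was -1.70 without control replicate 2, -4.91 without control replicate 1, and -1.62 with a pseudocount of 1 FPKM. LNC_000346 met the limit on level only through its control libraries, so its direction is not independent of the choice. The lincRNA LNC_000259 (XLOC_012496) was at 3.12, 0.571 and 2.00 FPKM in cold and at 4.30, 13.1 and 15.3 FPKM in control leaves. Here the groups did not overlap, with a log2 change of -2.54 (SE 0.694, adjusted p = 0.105), and -3.10 to -1.89 when single libraries were left out, the nearest to 0 without cold replicate 2.

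Smaller differences came with tighter replicates. The antisense lncRNA LNC_000489 (XLOC_018666) had the lowest adjusted p of the 45. It was at 2.49, 1.80 and 1.76 FPKM in cold and 4.38, 7.25 and 6.78 FPKM in control leaves, a log2 change of -1.54 (SE 0.306, adjusted p = 0.064). LNC_001216 (XLOC_047878), an antisense lncRNA, was at 0.794, 0.775 and 1.22 FPKM in cold and 2.94, 5.33 and 2.04 FPKM in control leaves (log2 change -1.70, SE 0.404, adjusted p = 0.0829). LNC_001362 (XLOC_053484), a lincRNA, was at 1.71, 1.34 and 3.02 FPKM in cold and 4.76, 4.47 and 8.92 FPKM in control leaves (log2 change -1.54, SE 0.41, adjusted p = 0.0956). In all 3 the cold libraries lay below the control ones. LNC_001216 met the limit on level only through its control libraries, so its direction is not independent of the choice. All 3 were named after their values were seen.

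A pair of lincRNAs, named after their values were seen, had similar values in the Dongnong422 libraries, furthest apart in cold replicate 3. LNC_000407 (XLOC_016278) was at 2.69, 4.26 and 3.23 FPKM in cold and 1.15, 2.25 and 1.24 FPKM in control leaves. LNC_000888 (XLOC_033675) was at 2.57, 4.81 and 2.55 FPKM in cold and 1.10, 2.01 and 1.13 FPKM in control leaves. For both, cold replicate 2 was highest and each cold library lay above each control one. Their log2 changes were 1.12 (SE 0.348) and 1.16 (SE 0.379), with limma adjusted p-values of 0.132 and 0.138.

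Of the 11 non-overlapping lncRNAs, the other 4 were lincRNAs at low levels. LNC_000368 (XLOC_015044) was at 1.11, 1.32 and 1.33 FPKM in cold and 2.45, 1.82 and 3.19 FPKM in control leaves. LNC_000088 (XLOC_005195) was at 0.945, 0.893 and 0.509 FPKM in cold and 1.40, 1.32 and 1.74 FPKM in control leaves. Their log2 changes were -0.91 (SE 0.299) and -0.88 (SE 0.324), with limma adjusted p-values of 0.139 and 0.165. LNC_001225 was at 1.39, 1.73 and 0.917 FPKM in cold and 0.611, 0.888 and 0.668 FPKM in control leaves, a log2 change of 0.79 (SE 0.332, adjusted p = 0.209). LNC_000930 (XLOC_034471) had the smallest change of the 11, with 2.25 ± 0.42 FPKM in cold and 2.94 ± 0.212 FPKM in control leaves (SD, n = 3 each), a log2 change of -0.38 (SE 0.264, limma adjusted p = 0.422). Each of these differences was under 1 on the log2 scale. LNC_000088 met the limit on level only through its control libraries and LNC_001225 only through its cold ones. Their directions are thus not independent of the choice.

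The antisense lncRNAs with levels above 4 FPKM that have not yet been given overlapped between treatments. LNC_001139 (XLOC_043722) was at 8.89, 6.95 and 9.83 FPKM in cold and 7.55, 8.16 and 6.19 FPKM in control leaves. LNC_001353 (XLOC_053086) was at 10.2, 4.84 and 3.68 FPKM in cold and 5.27, 5.49 and 6.62 FPKM in control leaves. LNC_001041 (XLOC_039550) was at 5.16, 3.63 and 3.83 FPKM in cold and 3.57, 6.73 and 5.63 FPKM in control leaves. In LNC_001353 the highest library was a cold one, and in LNC_001041 a control one. The log2 changes of these 3 were 0.22 (SE 0.263), -0.03 (SE 0.398) and -0.30 (SE 0.322), with limma adjusted p-values of 0.655, 0.982 and 0.619. The sign of LNC_001353 turned with median-ratio scaling (0.15) and without cold replicate 3 (0.28), among other settings.

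Among lincRNAs at 20 FPKM or more, LNC_001071 (XLOC_040572) was at 32.2, 101.8 and 28.6 FPKM in cold and 33.7, 89.8 and 69.0 FPKM in control leaves. LNC_000236 (XLOC_011542) was at 46.3, 54.3 and 43.0 FPKM in cold and 22.0, 43.6 and 38.7 FPKM in control leaves. LNC_000525 (XLOC_020010) was at 16.4, 25.01 and 17.2 FPKM in cold and 23.5, 46.8 and 40.5 FPKM in control leaves. In each of them the treatments overlapped by at least 1 library, with log2 changes of -0.38 (SE 0.58), 0.51 (SE 0.327) and -0.88 (SE 0.346). At a lower level, the lincRNA LNC_000831 (XLOC_031118) was at 1.504, 1.70 and 0 FPKM in cold and 11.4, 12.2 and 0 FPKM in control leaves, so each treatment held a library at 0 (log2 change -1.87, SE 2). That change was -0.51 without cold replicate 3 and -4.17 without control replicate 3. Limma adjusted p-values for these 4 were 0.737, 0.383, 0.180 and 0.617, and they, like the antisense lncRNAs just given and LNC_000368, LNC_000088 and LNC_000930, were named after their values were seen. Over the 45, cold and control libraries overlapped for 34, which had adjusted p-values of 0.180 or more, and 27 of these 34 had a log2 change smaller than 1.

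The high-level lncRNAs gave small cold differences relative to their spread. LNC_001480 averaged 381 ± 49.6 FPKM in cold and 437 ± 145 FPKM in control leaves (SD, n = 3 each), a log2 change of -0.15 (SE 0.336) whose sign turned with median-ratio scaling (0.03), with quantile normalization (0.62) and without control replicate 2 (0.10). LNC_001019 averaged 70.7 ± 5.45 FPKM in cold and 60.7 ± 11.5 FPKM in control leaves (SD, n = 3 each; log2 change 0.23, SE 0.264). The difference for LNC_000721 was -0.82 (SE 0.475), with 160 ± 69.2 FPKM in cold and 287 ± 133 FPKM in control leaves (SD, n = 3 each), and it was -0.27 with quantile normalization and -0.48 without control replicate 3. Their limma adjusted p-values were 0.827, 0.632 and 0.342.

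How many of the 45 were called differed between the fits of 6 and of 12 libraries. A fit of all 12 libraries with a mean for each of the 4 groups called 5 of the 45 in cold Dongnong422, where it called 4.86% of 1441 lncRNAs, 1.67% higher and 3.19% lower. LNC_001073 was higher, and LNC_000489, LNC_001216, LNC_000259 and LNC_001362 were lower, with adjusted p-values of 0.0348, 0.0163, 0.0228, 0.0319 and 0.0337. In that fit the Kongyu131 libraries, which are at 0 for these lncRNAs by the way they were chosen, enter the spread. The moderated spread was smaller than in the fit of the 6 Dongnong422 libraries for 45 of the 45, and for 55.5% of all lncRNAs in both fits. The fit of 12 libraries also tested more lncRNAs, 1441 against 1359, and estimated each spread from more libraries, and the part of each in the calls was not tested. The 5 calls are given as an alternative and not as cold changes, and the direction of LNC_001216 is also tied to the limit on level.

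The order of the listed locus identifiers was also looked at, with no expected number of neighbours computed, so the counts are not read as scatter or grouping. Only 1 pair sat on neighbouring entries, LNC_000930 (XLOC_034471) and LNC_000931 (XLOC_034472), both lincRNAs, and the 31 Kongyu131-only lncRNAs held 0 such pairs. The levels of the pair differed, at 2.64, 2.31 and 1.81 FPKM in cold and 2.97, 3.14 and 2.71 FPKM in control leaves for LNC_000930, and at 76.8, 66.4 and 50.9 FPKM in cold and 46.0, 58.8 and 60.5 FPKM in control leaves for LNC_000931. LNC_000930 was lower in each cold library than in each control one, and LNC_000931 overlapped. No position was used here, so neighbouring identifiers need not mean neighbouring loci.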

How the data were processed

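Leaf RNA was freed of ribosomal RNA and made into strand-specific libraries (NEBNext Ultra Directional kit), per the labels' protocols. TopHat2 2.0.9 and Cufflinks 2.1.1 are named in the submitters' processing notes. Not given in the sources used here are their settings, the genome build, the annotation, the use of strand in counting and the rule behind the lncRNA class. The authors deposited a table of FPKM values per library, with a transcript, a locus and a class. FPKM values are not counts. Between low values of 2 libraries, the most frequent ratio covered at most 5.62% of loci (within 1%). No expected share was computed, so this cannot show whether a common step exists. Reads were not recovered and no count model was used.

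Values were used as deposited, as log2(FPKM + 0.1), for lncRNAs with a mean of at least 0.1 FPKM over the 6 Dongnong422 libraries. All 45 passed this filter. Cold against control was fitted with limma 3.58.1 in R 4.3.3 (group means, variance trend, two-sided, with calls at an adjusted p under 0.05, Benjamini-Hochberg, over all lncRNAs tested). The code was also run on simulated data with normal noise and planted rises only. Such data do not resemble lncRNAs that are high in a single library, so that run is not used to judge the calls here. Fold changes on this scale are understated for low lncRNAs. FPKM is a share of the library, so abundant RNAs shift the others. The lincRNA LNC_000712 alone ran from 274258 FPKM in Dongnong422 control replicate 1 to 1.17e+06 FPKM in cold replicate 2. Median-ratio scaling factors were 1.03, 0.943 and 1.06 for the cold and 1.05, 1.18 and 1.20 for the control libraries. The main fit used no scaling, and the part of such shifts in the cold changes was not tested beyond the scaled alternatives.

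The members and the comparisons were chosen with earlier results of these data known. Named were the 2 furthest changes each way, the 5 highest means, the 3 lowest coefficients of variation, the values next to each limit and those at 0 throughout a treatment. Others are named where the text says so or describe a calling difference or neighbouring identifiers. Of members above 0 in Kongyu131 there was 1, where the rule allowed 2. Alternatives were other pseudocounts, filters, scalings, no trend, a replicate block, all 12 libraries, other limits for membership and each library left out.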

Additional observations from a re-analysis of the deposited data

How the results depend on the processing

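The count of Dongnong422-only lncRNAs called by limma was 0 (11 at an unadjusted p under 0.05). It stayed 0 under each alternative except the fit of all 12 libraries, where it was 5, and it was 0 in each of the 6 fits without a library, of which the one without control replicate 2 tested 43 of the 45, LNC_000824 and LNC_001209 then being at 0 in the other 5 Dongnong422 libraries. The count of all lncRNAs called, 7, was 3 with a pseudocount of 0.01 FPKM, 21 with no filter, 14 with no variance trend, 70 with all 12 libraries, and 0 to 5 without single libraries. With the replicate number as a block it was 0 by limma, with 281 at an unadjusted p under 0.05. Deviations from the group means correlated at -0.08, -0.02 and 0.05 between same-numbered cold and control libraries. With 3 libraries per group these values cannot decide whether the numbers pair the libraries, and the main fit used no pairing. The count of the 45 at an unadjusted p under 0.05, an alternative measure added after seeing the data, was 7 to 12 without single libraries, 2 to 6 of them higher and 5 to 10 lower in the cold.

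The 45 lncRNAs, 34 of them lincRNAs, became 43 to 48 and 32 to 37 without single libraries. Under other limits on level, transcripts of any locus, sums over loci and scaling, with rules on the median and on values above 0 that were added after seeing the data, the counts were 36 to 57 and 25 to 41.

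Of the 45, 30 were taken, 12 of them added after seeing the data, as were LNC_000489, LNC_001216 and LNC_001362. Their log2 changes were recomputed under each alternative that tested them. Of these 448 log2 changes, 21 had the opposite sign, and none of the 21 was called by limma. With quantile normalization LNC_000317 was 0.40, LNC_001353 was 0.0154 and LNC_001480 was 0.62. With median-ratio scaling LNC_000822 was 0.0846, LNC_001353 was 0.15 and LNC_001480 was 0.0268. A pseudocount of 1 FPKM gave -0.0146 for LNC_000555. Without single libraries LNC_000304 ran from -0.99 to 4.78, LNC_000317 from -1.06 to 0.27, LNC_000555 from -0.97 to 1.30, LNC_001353 from -0.44 to 0.28, LNC_001392 from -0.0369 to 0.16 and LNC_001480 from -0.31 to 0.10. The cause of these changes was not tested. Because the depth behind FPKM is unknown, no limit can be set on what a listed 0 allows.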
